A study of Sus scrofa with 60 samples.

Results

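The acute-phase serum proteins studied here are plasma proteins that hepatocytes secrete and whose output changes during inflammation. 10 genes were taken by name from the 30335 named genes of the liver count table: the serum amyloid A genes SAA2, SAA3 and SAA4, the pentraxins CRP and APCS, the hemoglobin carrier HP, the ligand-binding glycoproteins ORM1 and LRG1, and the inter-alpha-trypsin inhibitor heavy chains ITIH3 and ITIH4. The rule sets no threshold on a measured value, and all 10 passed the filter on low counts that left 16210 genes for testing. The symbol CRP stands on 2 rows of the table. The member is the row at chromosome 4, 90782741 to 90785051. The row with gene identifier 396842 is called the other CRP locus and is not counted among the 10.

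The livers came from 60 newborn pigs of mixed Landrace and Hampshire stock and of both sexes, without an engineered allele, delivered by cesarean section 1 day before term. In the bile duct ligation (BDL) groups the common bile duct and the cystic duct were tied off, and sham pigs had the same abdominal incision with brief handling of the liver. Every pig carried a jugular catheter and began on intravenous nutrition, so the sham pigs were operated and catheterized animals rather than untouched ones. Afterwards the ENT pigs were moved in steps, over the first week, from intravenous nutrition to a milk replacer fed enterally (ENT). The other pigs stayed on parenteral nutrition with either the soybean oil emulsion Intralipid (SLE, labelled IL) or the multicomponent emulsion SMOFlipid (MLE, labelled SL). Livers were collected after 14 days. There were 12 sham and 10 BDL pigs on ENT, 10 sham and 11 BDL pigs on SLE, and 9 sham and 8 BDL pigs on MLE. Each sample has a pig identifier of its own in the labels, except for a pair in the SLE-sham group (replicates 9 and 10) that shares an identifier and may be 1 pig. The p-values therefore measure the spread between these libraries.

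In the acute phase, interleukin-6 and interleukin-1 released by macrophages act on hepatocytes through STAT3, C/EBP and NF-kB and shift the mix of secreted proteins. Positive acute-phase proteins bind microbial surfaces (pentraxins), travel on high-density lipoprotein (serum amyloid A), bind free hemoglobin (haptoglobin) or stabilize hyaluronan-rich matrix (the ITIH chains). In pigs, ITIH4 is the protein known as pig major acute-phase protein, and together with haptoglobin, CRP and serum amyloid A it is used as a blood marker of inflammation.

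The libraries held 14469788 to 21374161 counted reads, with a median of 17254606. Together the 10 genes took a median of 2.3% of them, from 0.943% to 4.6% by pig. The 11 rows of the hepatocyte marker list were above 0 in every library. Replicate 2 of ENT-sham and replicate 1 of ENT-BDL were nearly alike. Over 15011 genes their counts gave a chi-square of 1.93 for each degree of freedom, while the next closest of 1770 pairs gave 16.2. Whether they are 1 animal sequenced again, or a mislabelled library, cannot be told from the labels. Both were kept because the labels put them in different groups, so with the SLE-sham pair the count of 60 pigs may be 2 too high, and calls of the 10 genes that change without them are given below. A 3-digit number in the pig identifiers takes 8 values, and pigs of different groups that share it resembled each other more (median correlation of deviations from the group mean 0.129) than pigs that do not (-0.019). The labels do not say what the number stands for, and the 17 MLE pigs carry only the 4 highest values.

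Per length of gene model, in reads scaled to library size (CPM) and divided by kilobases, ORM1 and HP were the most abundant of the 10. The median over 60 pigs was 5796 CPM per kb for ORM1 and 2898 for HP, followed by ITIH3 (679), ITIH4 (525) and LRG1 (123). The pentraxins and serum amyloid A transcripts lay lower, at 49.9 for APCS, 46.7 for SAA3, 19.0 for CRP, 19.0 for SAA4 and 18.7 for SAA2. Of the 9 genes with reads in every pig, SAA2, SAA3 and APCS had the widest range. The highest pig exceeded the lowest 563-fold for SAA2, 139-fold for SAA3 and 107-fold for APCS, but 4.57-fold for ITIH3 and 9.50-fold for ITIH4. HP (14.8-fold), CRP (13.3-fold), ORM1 (12.3-fold) and LRG1 (9.87-fold) lay between these. SAA4 ran from 0 in 3 pigs to 60.5 CPM, so no such fold is given for it and it has no place in this ranking.

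**Figure D1:**
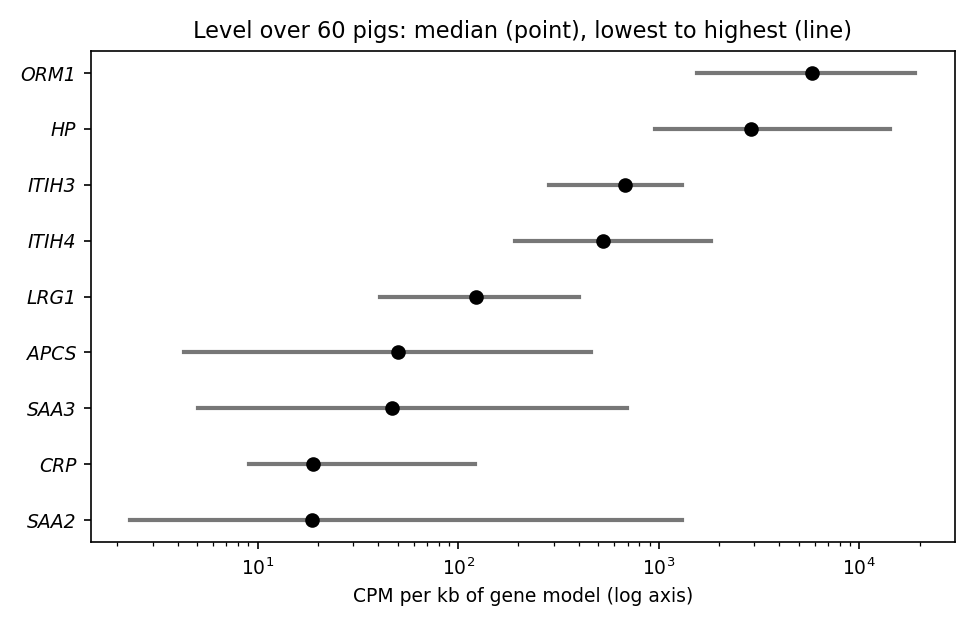
Level of 9 of the acute-phase genes in CPM per kilobase of gene model on a log axis, with the median over 60 pigs as a point and the lowest to highest pig as a line (SAA4, at 0 in 3 pigs, is left out). ORM1 and HP lie highest at medians of 5796 and 2898, and of the lines drawn those of SAA2, SAA3 and APCS are the longest.

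BDL was compared with sham within each diet to ask how the obstructed liver changed these transcripts. The log2 difference was negative for 8 of the 10 genes with ENT and 9 with MLE, and for 1 with SLE. In ENT pigs ITIH4, CRP and APCS fell and SAA3 rose. In MLE pigs ITIH4, HP, LRG1, ORM1 and SAA2 fell. In SLE pigs none of the 10 was called, and HP averaged 3976 ± 1358 CPM (SD, n = 10) after sham surgery and 7616 ± 5662 CPM (n = 11) after BDL. A gene is called here when edgeR's quasi-likelihood test gave a Benjamini-Hochberg adjusted p under 0.05 over all tested genes and a fold change above 2. In bulk liver, a lower level can come from fewer hepatocytes in the sample or from less of the transcript per hepatocyte, and these cannot be told apart.

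With ENT, 4 of the 10 were called, 1 higher and 3 lower, against 3.39% of all tested genes in either direction, 2.19% higher and 1.2% lower. With SLE the count was 0 of 10, against 1.49% of all genes. With MLE it was 5 of 10, all lower, against 3.78% of all genes in either direction and 1.22% lower. The median log2 difference of the 10 was -0.79 in ENT, 0.53 in SLE and -1.28 in MLE pigs, while the median over all tested genes was 0.0063, 0.0057 and 0.0038.

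**Figure D2:**
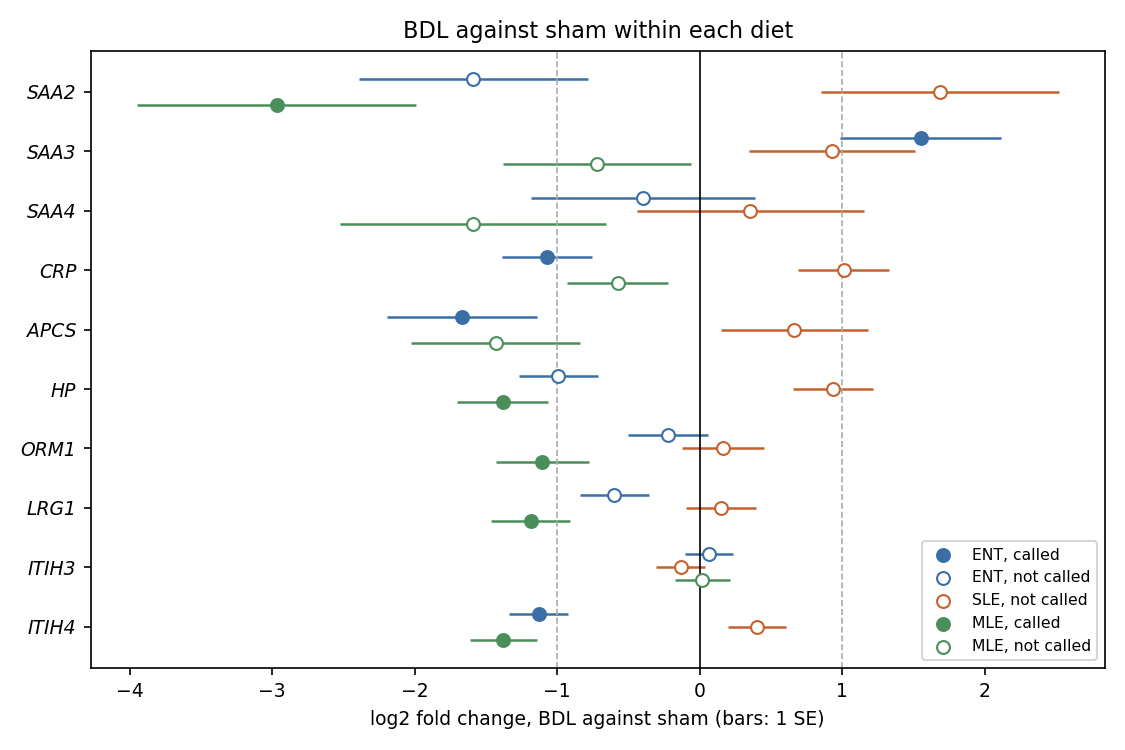
Log2 fold change of BDL against sham for the 10 genes within ENT, SLE and MLE pigs (points, with bars of 1 SE, filled where called and dashed lines at a 2-fold change). The MLE points lie left of 0 for every gene except ITIH3, the SLE points of HP, CRP and ITIH4 lie right of 0, and SAA3 is the only filled point on the right.

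HP encodes haptoglobin, which captures free hemoglobin (gene 397061, chromosome 6, 14980382 to 14985245 of Sscrofa11.1, overlapping TXNL4B on the other strand). In ENT-sham pigs HP ran from 2395 to 12813 CPM with a median of 8389, and in ENT-BDL pigs from 2366 to 7650 with a median of 3635. MLE-sham pigs ran from 2586 to 12078.5 with a median of 6616, and MLE-BDL pigs from 1465 to 3624 with a median of 2376. SLE-sham pigs ran from 2082 to 6479 with a median of 3926, and SLE-BDL pigs from 2954 to 21665 with a median of 5583. All 10 ENT-BDL and all 8 MLE-BDL pigs lay below the median of their shams, 8 of 11 SLE-BDL pigs lay above theirs, and the ranges overlapped in each diet. The lowest pig of ENT-sham and that of ENT-BDL were the nearly alike libraries (replicates 2 and 1). Without them the lows were 4404 and 3038 CPM, and 6 of 9 ENT-BDL pigs lay below every ENT-sham pig.

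In MLE pigs HP fell by 1.38 on the log2 scale (SE 0.32, adjusted p = 0.00146), and it was called in all 17 fits that left out 1 pig. In ENT pigs the difference was -0.99 (SE 0.28, adjusted p = 0.00834), 1.99-fold and so just short of the 2-fold limit. Without the 2 nearly alike ENT libraries it was -1.02 and was called, as it was with the replicate block (-1.04). In SLE pigs it was 0.94 (SE 0.28, adjusted p = 0.0399) and 0.64 without SLE-BDL replicate 7, the pig with 21665 CPM, where the adjusted p was 0.153. With the identifier number as a block it was 0.73 (adjusted p = 0.145). At any fold change, 17.4% of all genes passed the adjusted p with ENT and 4.54% with SLE. Both MLE groups carried each of the 4 identifier numbers. In ascending order of the number, the HP values were 3873 and 12078.5 CPM in sham against 1465 and 2464 in BDL pigs, then 4436, 8121 and 8311 against 2106, 2288 and 2869. For the third number they were 2586 and 5015 against 2038 and 2789, so that the surgeries overlapped there, and for the last 6616 and 6624 against 3624.

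ITIH4, the pig major acute-phase protein and a relative of the hyaluronan-binding heavy chains, lies on chromosome 13 at 34928455 to 34948250 (gene 396799), and a predicted gene overlaps it on the same strand. ENT-sham pigs ran from 1548 to 4707 CPM with a median of 3175, and ENT-BDL pigs from 923 to 2171 with a median of 1425. MLE-sham pigs ran from 3187 to 6886 with a median of 4241, and MLE-BDL pigs from 1301 to 2213 with a median of 1646. SLE-sham pigs ran from 1840 to 4274 with a median of 2362, and SLE-BDL pigs from 1914 to 8769 with a median of 3187. The MLE-BDL and MLE-sham ranges did not overlap, which held for 2.94% of all tested genes in that comparison. All 10 ENT-BDL pigs lay below the ENT-sham median, and 6 of them below the lowest ENT-sham pig. That pig was ENT-sham replicate 2, 1 of the nearly alike libraries, and without both of these 7 of 9 ENT-BDL pigs lay below the lowest ENT-sham pig, then at 1818 CPM.

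ITIH4 fell by 1.13 in ENT pigs (SE 0.21, adjusted p = 6.36e-05) and by 1.38 in MLE pigs (SE 0.23, adjusted p = 3.55e-05), on the log2 scale. Both calls stood in each fit that left out 1 pig. With the identifier number as a block, the ENT difference was -0.97, just under a 2-fold change. In SLE pigs the difference was 0.40 (SE 0.21, adjusted p = 0.291), with 8 of 11 BDL pigs above the sham median.

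ITIH3 is the neighboring heavy chain, which can be linked to hyaluronan (gene 100157235, 34911104 to 34924881). Group means lay between 1993 ± 642 CPM in MLE-sham (n = 9) and 2371 ± 535 CPM in ENT-BDL pigs (n = 10), and single pigs between 893 and 4080. Its BDL differences were 0.06 with ENT (SE 0.17), -0.13 with SLE (SE 0.17) and 0.02 with MLE (SE 0.19), and it was called in no comparison.

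LRG1, a leucine-rich glycoprotein that modulates TGF-beta signaling in vessels (gene 100524848, chromosome 2, 74300598 to 74303117), ran from 110 to 612 CPM in MLE-sham and from 62.0 to 179 in MLE-BDL pigs. The medians were 193 and 100.5, and all 8 BDL pigs lay below the sham median. It fell by 1.18 on the log2 scale in MLE pigs (SE 0.28, adjusted p = 0.00176), and by 0.90, under the 2-fold limit, without MLE-sham replicate 2. ENT-sham pigs had a median of 244 and ENT-BDL pigs of 131, with all 10 BDL pigs below the sham median. That difference was -0.60 (SE 0.24, adjusted p = 0.0763) and was not called, and in SLE pigs it was 0.15 (SE 0.24).

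**Figure D3:**
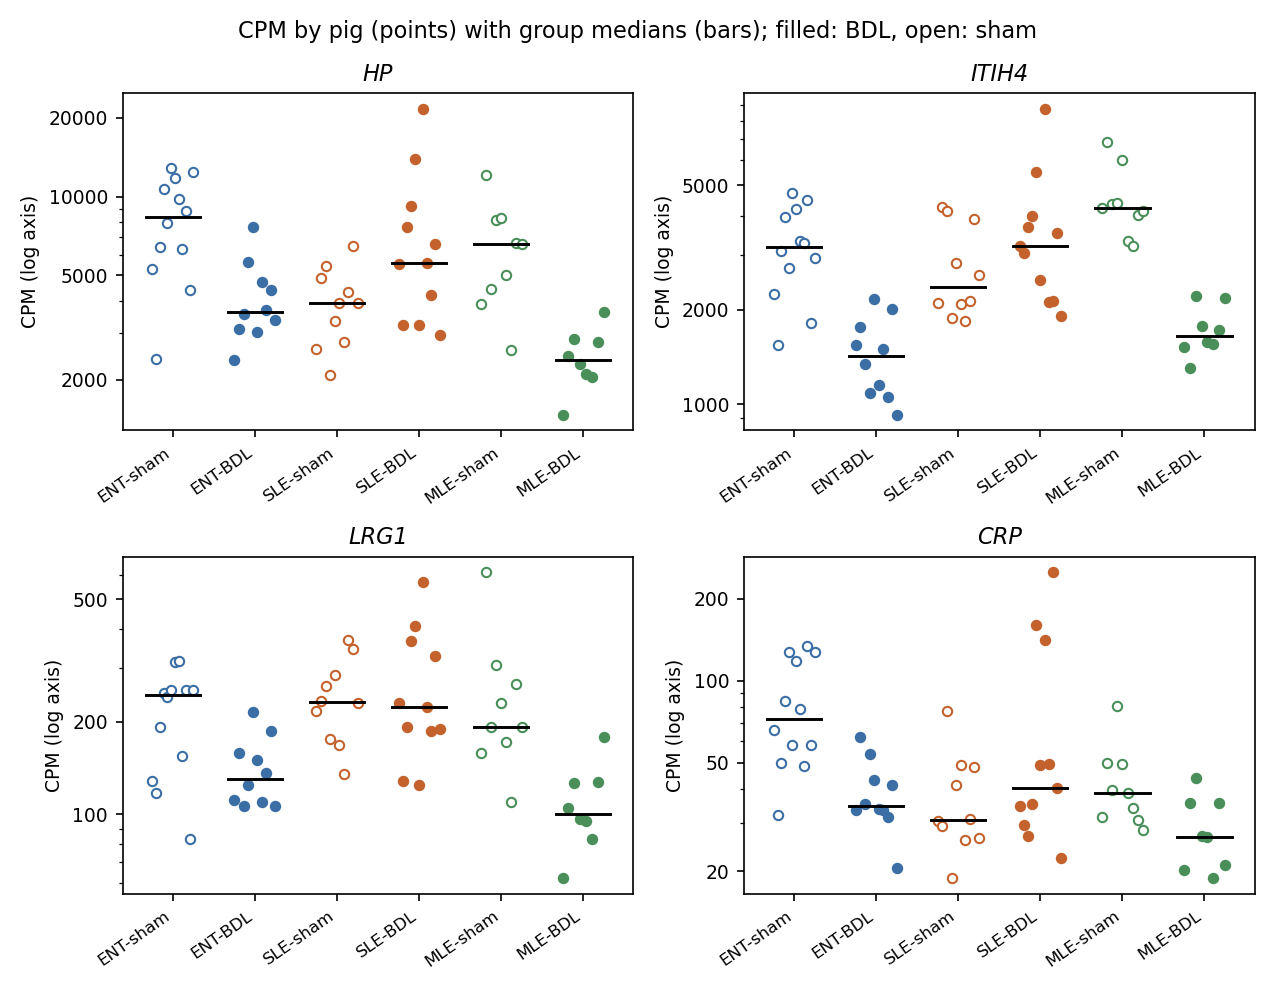
CPM of HP, ITIH4, LRG1 and CRP in each of 60 pigs on a log axis by diet and surgery, with open points for sham, filled points for BDL and a bar at the group median. MLE-BDL has the lowest median for HP, LRG1 and CRP, while for ITIH4 the ENT-BDL median is lower. The highest pigs for HP, ITIH4 and CRP are SLE-BDL pigs, and for ITIH4 no MLE-BDL pig reaches the lowest MLE-sham pig.

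ORM1 encodes alpha-1-acid glycoprotein, a carrier of basic drugs and small lipophilic molecules (gene 396901, chromosome 1, 254939154 to 254943065, overlapping AKNA on the other strand). MLE-sham pigs ran from 8398 to 39647 CPM with a median of 15092, and MLE-BDL pigs from 3849 to 19304 with a median of 7903. The ranges overlapped, with 7 of 8 BDL pigs below the sham median. ORM1 fell by 1.10 on the log2 scale in MLE pigs (SE 0.33, adjusted p = 0.0147), and the call was lost without MLE-sham replicate 7 or MLE-BDL replicate 2. In ENT pigs the means were 14522 ± 6241 and 12440 ± 3115 CPM (-0.22, SE 0.28), and in SLE pigs 12455 ± 4166 and 13931 ± 8150 (0.16, SE 0.29).

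CRP and APCS are short pentraxins that bind phosphocholine and amyloid or chromatin and recruit complement. The genes lie close together on chromosome 4, CRP at 90782741 to 90785051, the other CRP locus at 90793361 to 90801020 and APCS (gene 396921) at 90900585 to 90901854. Reads can be split between the near copies, so the division between the 2 CRP rows is uncertain, and APCS overlaps a predicted gene on the other strand. CRP ran from 32.2 to 134 CPM in ENT-sham pigs (median 72.3) and from 20.6 to 62.3 in ENT-BDL pigs (median 34.7). All 10 ENT-BDL pigs lay below the sham median and 2 of them below the lowest sham pig, which was replicate 2. Without the nearly alike libraries the lowest sham pig was at 48.8 CPM, with 7 of 9 BDL pigs below it. CRP fell by 1.07 on the log2 scale (SE 0.31, adjusted p = 0.0123). The call stood in 18 of 22 fits that left out 1 pig, and without ENT-BDL replicate 10 or ENT-sham replicate 5, 10 or 12 the fold was under 2 (difference nearest to 0, -0.99). APCS ran from 46.7 to 401 CPM in ENT-sham (median 176) and from 25.2 to 80.0 in ENT-BDL pigs (median 53.4), where 9 of the 12 sham pigs lay above the highest BDL pig. It fell by 1.67 (SE 0.52, adjusted p = 0.0202).

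With SLE, CRP had a sham median of 30.8 and a BDL median of 40.5 CPM, and 3 BDL pigs exceeded the highest sham pig of 77.8. The difference was 1.01 (SE 0.32, adjusted p = 0.0527), and 0.64 without SLE-BDL replicate 9, which held 249.8 CPM. It was called with DESeq2 and without the 2 nearly alike ENT libraries, and its adjusted p ran from 0.0288 to 0.214 over 7 alternatives. APCS ran from 16.8 to 268 CPM in SLE-sham and from 6.59 to 536 in SLE-BDL pigs and differed by 0.66 (SE 0.52, adjusted p = 0.533). The pig at 536 CPM was SLE-BDL replicate 7, and 6 of 11 BDL pigs lay above the sham median. In MLE pigs CRP differed by -0.57 (SE 0.35, adjusted p = 0.294) and APCS by -1.43 (SE 0.59, adjusted p = 0.0965), with all 8 BDL pigs below the sham median of 61.2 CPM for APCS. With only the groups compared, APCS was called in MLE pigs (-1.45, adjusted p = 0.0401). The other CRP locus moved more. It averaged 128 ± 96.9 CPM in ENT-sham (n = 12) and 13.3 ± 8.26 in ENT-BDL pigs (n = 10), a fall by 3.27 on the log2 scale (SE 0.50, adjusted p = 4.28e-06). Its lowest ENT-sham pig was again replicate 2, at 7.53 CPM, and the next lowest was at 40.4. In SLE pigs it rose by 1.86 (SE 0.49, adjusted p = 0.019) from a mean of 6.81 ± 2.69 CPM.

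The serum amyloid A genes, whose products ride on high-density lipoprotein, lie within 1 stretch of chromosome 2: SAA2 (gene 100525680) at 40972797 to 40976222, SAA4 (gene 100526034) at 40986869 to 41003059 and SAA3 (gene 733603) at 41021349 to 41025950. They are close relatives, so reads may be shared between them. SAA2 ran from 4.03 to 839 CPM in ENT-sham pigs (median 52.8) and from 4.88 to 235 in ENT-BDL pigs (median 7.10), where 8 of 10 BDL pigs lay below the sham median. The difference of -1.59 (SE 0.80, adjusted p = 0.173) was not called. The highest pigs of these groups were ENT-sham replicate 6 (839 CPM) and ENT-BDL replicate 9 (235 CPM), far above the medians. In MLE pigs SAA2 ran from 4.90 to 403 CPM (median 12.4) after sham and from 1.49 to 13.3 (median 7.75) after BDL. The fall by 2.97 (SE 0.98, adjusted p = 0.0317) rested on MLE-sham replicate 2, the pig at 403 CPM: without it the difference was -1.13 with an adjusted p of 0.42. The call was also lost with the replicate or the identifier number as a block, the latter at -2.64 (adjusted p = 0.0787). Over 7 alternatives the difference ran from -3.00 to -2.10. SLE-sham pigs ran from 5.42 to 47.3 CPM (median 10.9) and SLE-BDL pigs from 4.05 to 117 (median 16.5), with 4 BDL pigs above every sham pig (1.68, SE 0.83, adjusted p = 0.269).

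SAA3, the form with much expression outside the liver in many mammals, moved the other way in ENT pigs. It ran from 3.48 to 138 CPM in ENT-sham (median 19.7) and from 27.3 to 482 in ENT-BDL pigs (median 72.6), and all 10 BDL pigs lay above the sham median. It rose by 1.55 on the log2 scale (SE 0.57, adjusted p = 0.0487). The call stood in 8 of 22 fits that left out 1 pig, and the difference was 0.93 (adjusted p = 0.261) without ENT-BDL replicate 5, at 482 CPM. It was also lost with the identifier number as a block (adjusted p = 0.0624), with DESeq2's size factors, with no filter on low counts and with only the groups compared, at differences of 1.54 to 1.70 over 7 alternatives. SLE-sham and SLE-BDL medians were 42.1 and 40.7 CPM, with 3 BDL pigs between 231 and 286 above every sham pig (0.93, SE 0.58, adjusted p = 0.413). In MLE pigs the medians were 14.9 and 18.1 (-0.72, SE 0.66, adjusted p = 0.516).

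**Figure D4:**
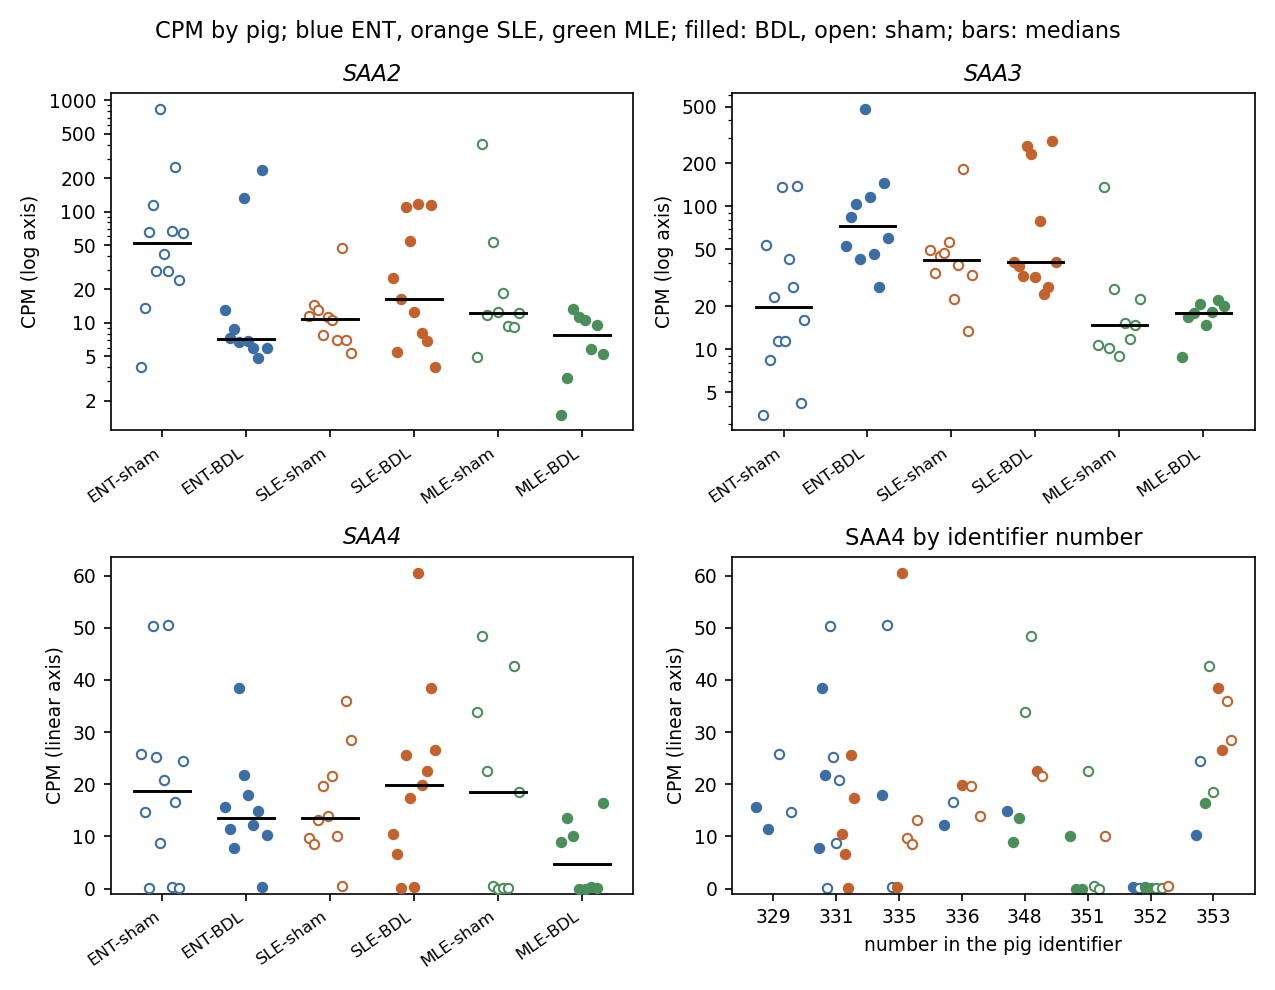
CPM of SAA2 and SAA3 (log axes) and SAA4 (linear axis) in each of 60 pigs by group with bars at the medians, and SAA4 again by the number in the pig identifier. SAA3 in MLE-BDL pigs (8.80 to 22.1 CPM) lies below every ENT-BDL and SLE-BDL pig, and SAA4 is near 0 in 15 pigs, among them all 7 pigs with the second highest number.

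Markers of other cell types moved with BDL as well, and their part in these results was not tested. The summed level of 6 cholangiocyte markers ran from 41.2 to 281 CPM in ENT-sham and from 156 to 304 in ENT-BDL pigs, and from 64.1 to 108 in MLE-sham and 132 to 321 in MLE-BDL pigs, while SLE-sham (108 to 280) and SLE-BDL (129 to 343) were closer. 4, 1 and 5 of the 6 were called higher with ENT, SLE and MLE, where 3.39%, 1.49% and 3.78% of all genes were called in either direction. The summed neutrophil markers (11 measured, MMP8 at 0 in 8 libraries) had medians of 16.8 and 24.5 CPM with ENT, 22.3 and 43.2 with SLE and 15.4 and 25.4 with MLE, sham before BDL, and 1, 2 and 2 of 11 were called higher. The summed macrophage markers were 1902 and 1312, 1571 and 1213, and 1498 and 1108 CPM, while of the 10 single genes 2, 1 and 2 were called higher and 0, 1 and 0 lower. The 11 hepatocyte rows were ALB, APOB, TF (2 rows), TTR, CPS1, ASGR1, TAT, SERPINA1, APOA1 and F2, and some encode secreted plasma proteins. ALB and 1 row of TF had the highest medians, 46112 and 28001 CPM, and weigh most in the sum. Whether the sum follows hepatocyte content was not tested. The summed hepatocyte markers, none of them called with any diet, had medians of 112784 and 93678 CPM with ENT and 104944 and 105553 with SLE. With MLE they ran from 87506 to 142522 in sham and from 68439 to 92115 in BDL pigs. Without the fold limit 6, 0 and 8 of the 11 rows passed the adjusted p with ENT, SLE and MLE, against 17.4%, 4.54% and 14.4% of all genes, and the median log2 difference of the 11 was -0.24, -0.07 and -0.57, the same sign as that of the 10 members with ENT and MLE.

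Whether the effect of BDL differed between diets was tested as the interaction of surgery and diet, called at an adjusted p under 0.05 with any fold change. HP, ITIH4 and CRP responded differently with SLE than with ENT, and HP and ITIH4 differently with MLE than with SLE. The 3 called between SLE and ENT were all more positive with SLE, against 2.33% of all tested genes called in either direction and 1.26% more positive. The 2 called between MLE and SLE were more negative with MLE, against 0.265% in either direction and 0.197% more negative. Between MLE and ENT 0 of 10 was called, against 0.0617% of all genes, and the largest of these differences was -2.27 for SAA3 (SE 0.87, adjusted p = 0.398). The comparisons share the groups of the diet they have in common.

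For HP the BDL response was 1.93 higher on the log2 scale with SLE than with ENT (SE 0.39, adjusted p = 0.00293), and 2.32 lower with MLE than with SLE (difference -2.32, SE 0.42, adjusted p = 0.00388). The corresponding values were 1.53 (SE 0.29, adjusted p = 0.00141) and -1.78 (SE 0.31, adjusted p = 0.00311) for ITIH4. CRP differed by 2.08 between SLE and ENT (SE 0.45, adjusted p = 0.00474), and the other CRP locus by 5.13 (SE 0.70, adjusted p = 1.68e-05). These 5 differences of the members passed in every fit that left out 1 pig and in each of 7 alternative fits. Over those alternatives the adjusted p ran from 0.00061 to 0.0207 for HP and from 5.08e-05 to 0.0154 for ITIH4 between SLE and ENT. Between MLE and SLE it ran from 0.000381 to 0.015 for HP and from 3.06e-05 to 0.0135 for ITIH4. For CRP it ran from 0.000488 to 0.0196 between SLE and ENT. SAA2 (3.27, SE 1.16), APCS (2.33, SE 0.73) and LRG1 (0.75, SE 0.34) were also more positive with SLE than with ENT, without passing (adjusted p = 0.125, 0.0763 and 0.273). Without the 2 nearly alike ENT libraries APCS passed (2.45, adjusted p = 0.0495), and with DESeq2 both APCS and SAA2 did. Between MLE and SLE, SAA2 differed by -4.65 and LRG1 by -1.33 without passing in edgeR (adjusted p = 0.0992 and 0.098), and both passed with DESeq2 (adjusted p = 0.00984 and 0.0298). The fall of SAA2 in MLE pigs, which enters this difference, rested on MLE-sham replicate 2, as given above.

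Among BDL pigs, the diets were compared to ask how the lipid source and route of feeding went with these transcripts once bile flow was blocked. Over all 6 groups, MLE-BDL livers held the lowest mean log2 CPM of 8 of the 10 genes, all except ITIH3 and ITIH4. How many of all genes were lowest there was not counted. None of the 8 differed from its next lowest group in edgeR (adjusted p from 0.187 to 0.696). For SAA4, 4 of the 8 MLE-BDL pigs lay under 1 CPM. Against SLE-BDL, 6 of 10 were called and all 6 were lower with MLE: HP, LRG1, ITIH4, CRP, APCS and SAA3. Only 0.37% of all tested genes were called in that comparison, 0.296% lower, which is 60 genes in all. Against ENT-BDL, SAA3 alone was called lower with MLE, 1 of 10 against 3.18% in either direction and 1.96% lower. SAA2 was at -2.49 there (adjusted p = 0.0621) and was called with DESeq2 (-2.51, adjusted p = 0.0136). Between SLE-BDL and ENT-BDL, ITIH4 alone was called, higher with SLE, against 3.13% of all genes in either direction and 1.41% higher. The ENT-BDL, SLE-BDL and MLE-BDL groups each stand in 2 of these comparisons.

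Against SLE-BDL, HP was 1.63 lower in MLE-BDL pigs on the log2 scale (difference -1.63, SE 0.31, adjusted p = 0.00405), with 7 of 8 MLE-BDL pigs below the lowest SLE-BDL pig. LRG1 differed by -1.29 (SE 0.27, adjusted p = 0.0073) and ITIH4 by -1.08 (SE 0.23, adjusted p = 0.0073). SAA3 ran from 8.80 to 22.1 CPM in MLE-BDL and from 24.6 to 286 in SLE-BDL pigs, so that the groups did not overlap, as in 0.037% of all tested genes. It differed by -2.52 (SE 0.67, adjusted p = 0.0495). APCS ran from 4.99 to 51.0 CPM in MLE-BDL and from 6.59 to 536 in SLE-BDL pigs (-2.37, SE 0.60, adjusted p = 0.0341). CRP ran from 18.8 to 43.8 and from 22.3 to 249.8 (-1.41, SE 0.35, adjusted p = 0.0284).

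These 6 calls depended on the fit. With the identifier number as a block none of the 6 remained, with differences of -1.25 for HP, -1.02 for LRG1, -0.68 for ITIH4, -1.55 for CRP, -2.35 for APCS and -2.14 for SAA3 and adjusted p of 0.155, 0.224, 0.331, 0.119, 0.272 and 0.351. None remained when only these groups entered the fit, and with the replicate block 3 did. Over 7 alternatives the differences ran from -1.65 to -1.25 for HP, -1.38 to -1.02 for LRG1 and -1.10 to -0.68 for ITIH4. They ran from -1.55 to -1.26 for CRP, -2.38 to -2.08 for APCS and -2.53 to -2.14 for SAA3. The SLE-BDL and MLE-BDL groups shared only 2 of the identifier numbers, with 3 pigs each. In those pigs HP was 4218, 6620 and 2954 CPM with SLE and 1465, 2464 and 3624 with MLE. SAA3 was 27.2, 286 and 40.7 against 8.80, 16.8 and 20.1. SLE-BDL replicate 7 was the highest pig of its group for HP, ITIH4, LRG1, APCS and SAA2. Without it HP differed by -1.35 (adjusted p = 0.0176) and ITIH4 by -0.87, under the 2-fold limit. CRP differed by -1.05 (adjusted p = 0.0928) without SLE-BDL replicate 9, APCS by -1.82 (0.127) without SLE-BDL replicate 7 and SAA3 by -2.23 (0.0842) without SLE-BDL replicate 10. The summed neutrophil markers ran from 17.3 to 100.2 CPM in SLE-BDL and from 16.7 to 53.3 in MLE-BDL pigs, with 0 of 11 called, and their part was not tested. Of the SLE-sham pair that shares an identifier, each was left out in turn. Without replicate 9, HP was called for BDL with SLE (1.04, adjusted p = 0.03) and APCS in the interaction of SLE with ENT (2.57, adjusted p = 0.0459). Without replicate 10, SAA3 was at an adjusted p of 0.0507 for BDL with ENT and 0.0507 for MLE against SLE in BDL pigs and was not called.

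SAA3 in MLE-BDL pigs also lay below all 10 ENT-BDL pigs (27.3 to 482 CPM), as groups without overlap did for 2.21% of all genes in that comparison. It was lower by 2.74 on the log2 scale (difference -2.74, SE 0.69, adjusted p = 0.0033) and was called in all 18 fits that left out 1 pig, but not with the identifier number as a block (-2.35, adjusted p = 0.0609). ITIH4 averaged 3666 ± 1985 CPM in SLE-BDL (n = 11) and 1456 ± 423 in ENT-BDL pigs (n = 10), and all 11 SLE-BDL pigs lay above the ENT-BDL median. It was higher with SLE by 1.33 (SE 0.21, adjusted p = 3.78e-06), and this call stood in all alternatives. LRG1 (0.93, adjusted p = 0.00475), CRP (0.97, adjusted p = 0.0245) and HP (0.87, adjusted p = 0.0209) were higher with SLE at a fold change under 2. Without the fold limit, 4 of 10 passed, against 19.6% of all genes. CRP (0.80, adjusted p = 0.0904) and HP (0.57, adjusted p = 0.146) did not pass with the identifier number as a block.

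Among sham pigs, SAA2, HP and CRP were lower with SLE than with ENT, and no other member was called among sham pigs. These 3 of 10 compare with 5.24% of all tested genes called in either direction and 2.79% lower. SAA2 ran from 5.42 to 47.3 CPM in SLE-sham (median 10.9) against a median of 52.8 CPM in ENT-sham pigs. It fell by 3.26 on the log2 scale (SE 0.87, adjusted p = 0.00343), and by 2.25 (adjusted p = 0.0301) without ENT-sham replicate 6, at 839 CPM. HP fell by 1.05 (SE 0.28, adjusted p = 0.00276) and CRP by 1.11 (SE 0.31, adjusted p = 0.0056), and 18 and 22 of 22 fits with 1 pig left out kept the call. A block on the identifier number left HP at -0.99, just under the 2-fold limit. APCS was at -1.07 (SE 0.51, adjusted p = 0.116) and not called. For it 8 of 10 SLE-sham pigs lay below the ENT-sham median, and SLE-sham replicate 6 was highest of its group at 268 CPM. Of the 6 cholangiocyte markers, KRT19 (1.27, SE 0.25, adjusted p = 9.17e-05) and SPP1 (2.51, SE 0.28, adjusted p = 8.11e-10) were called higher in SLE-sham than in ENT-sham pigs. KRT7 (0.43), EPCAM (0.05), CFTR (-0.16) and SOX9 (-0.47) were not called. The part of these markers in the results was not tested. The other CRP locus had at most 10.5 CPM in any SLE-sham pig and a median of 108 in ENT-sham pigs (-4.24, SE 0.53, adjusted p = 9.96e-09).

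Between MLE-sham and ENT-sham 0 of 10 was called, against 3.71% of all genes. SAA2 was at -1.11 (SE 0.82, adjusted p = 0.357), with 7 of 9 MLE-sham pigs below the ENT-sham median. Its MLE-sham median was 12.4 CPM, while MLE-sham replicate 2 held 403 CPM. CRP was past the adjusted p at a fold of 1.92 (-0.94, SE 0.32, adjusted p = 0.0303), 1 of 10 against 21.1% of all genes without the fold limit. It was called without the nearly alike ENT libraries and with the identifier number as a block (-1.03 and -1.25). APCS differed more, with a mean of 66.8 ± 44.2 CPM in MLE-sham (n = 9) and 170 ± 103 in ENT-sham pigs (n = 12), and 8 of 9 MLE-sham pigs below the ENT-sham median. Its difference of -1.34 (2.54-fold, SE 0.54) had an adjusted p of 0.0649. APCS was called with DESeq2 (adjusted p = 0.0341), with only the groups compared (adjusted p = 0.0161) and without MLE-sham replicate 2 (-1.68, adjusted p = 0.0263) or ENT-sham replicate 2 (-1.43, adjusted p = 0.0499), and over 7 alternatives its adjusted p ran from 0.0161 to 0.117. Between MLE-sham and SLE-sham 0 of 10 was called, against 0.463% of all genes, and the smallest adjusted p was that of ITIH4 at 0.105 (0.70, SE 0.22). With the identifier number as a block ITIH4 passed the adjusted p in both of these comparisons, at 0.85 against ENT-sham and 0.95 against SLE-sham, under the 2-fold limit. For ITIH4, MLE-sham pigs averaged 4503 ± 1202 CPM (n = 9) and SLE-sham pigs 2776 ± 965 (n = 10).

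Ranked by mean log2 CPM, HP and CRP ran alike, from ENT-sham through SLE-BDL, MLE-sham, ENT-BDL and SLE-sham down to MLE-BDL, and SAA2 followed the same order. For ITIH4 the order was MLE-sham, SLE-BDL, ENT-sham, SLE-sham, MLE-BDL and ENT-BDL. LRG1 ran from SLE-BDL through SLE-sham, MLE-sham, ENT-sham and ENT-BDL to MLE-BDL. ORM1 was highest in MLE-sham, then ENT-sham and ENT-BDL, then the sham and the BDL pigs on SLE, and lowest in MLE-BDL. APCS ran from ENT-sham through SLE-BDL, MLE-sham, SLE-sham and ENT-BDL to MLE-BDL. SAA3 ran from ENT-BDL through SLE-BDL, SLE-sham, ENT-sham and MLE-sham to MLE-BDL. No 2 neighbors in any of these orders, nor in those of SAA4 and ITIH3, differed at an adjusted p under 0.05 in edgeR, 0 of 50 steps. Neighbors were set by ranking these same means, which picks small differences, so the count cannot show that levels are alike. Over the 15 pairs of groups, taken without such ranking, 0.907% to 36.2% of all genes passed that threshold.

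SAA4, the constitutive form of serum amyloid A, differed from the other members in how its values were spread. In 15 of 60 pigs it lay under 1 CPM (0 to 0.557 CPM, at most 8 reads), and in the other 45 between 6.68 and 60.5 CPM (median 18.5, at least 118 reads), with no pig between. The limit of 1 CPM was set after these values were seen. The low pigs were 3 of 12 in ENT-sham, 1 of 10 in ENT-BDL, 1 of 10 in SLE-sham, 2 of 11 in SLE-BDL, 4 of 9 in MLE-sham and 4 of 8 in MLE-BDL. They lay unevenly over the identifier numbers: 1 number held 7 low pigs of 7, which came from 5 of the 6 groups, another 4 of 7, another 2 of 8 and another 2 of 13, while the other 4 numbers held none. The 7 low pigs that share a number were not low for the neighboring genes, with 5.83 to 235 CPM of SAA2 and 4.23 to 183 CPM of SAA3. SAA4 was called in no comparison. Its BDL difference of -1.59 in MLE pigs (SE 0.93, adjusted p = 0.266) sets groups with 4 low pigs each side by side.

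The members also varied together from pig to pig within groups. After each group's mean log2 CPM was subtracted, 36 pairs of 9 genes were correlated over 60 pigs, leaving out SAA4 because its values fall into separate sets. 21 pairs passed a permutation test (100000 permutations within groups, two-sided, Benjamini-Hochberg adjusted over the 36 pairs), 19 positive and 2 negative. How many pairs of other genes would pass this test was not examined, so the count describes these 36 pairs alone. HP and LRG1 went together most closely (r = 0.83, rho = 0.83, permutation p = 1e-05 for each, the smallest the permutations can give), followed by HP and ITIH4 (r = 0.79, rho = 0.74), SAA2 and SAA3 (r = 0.77, rho = 0.66), CRP and APCS (r = 0.73, rho = 0.71) and LRG1 and ITIH4 (r = 0.72, rho = 0.71). The permutation p of each of these was 1e-05 and the adjusted values were 4.5e-05 for r and 5.14e-05 for rho. Without the 2 pigs farthest from the median of the first gene the r values were 0.82, 0.72, 0.75, 0.70 and 0.67.

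ORM1 stood apart from this group. It was lower in pigs where APCS was higher (r = -0.45, rho = -0.48, permutation p = 0.00249 and 0.00056, adjusted p = 0.0069 and 0.00168, r = -0.48 without 2 pigs) and where CRP was higher (r = -0.36, rho = -0.31, permutation p = 0.0191 and 0.025, adjusted p = 0.0344 and 0.045, r = -0.37 without 2 pigs). With HP it had r = -0.17 (rho = -0.17, permutation p = 0.284 and 0.24, adjusted p = 0.426 and 0.36, r = -0.14 without 2 pigs). Its positive relation with ITIH3 (r = 0.33, rho = 0.37, permutation p = 0.0221 and 0.00671, adjusted p = 0.0379 and 0.0151, r = 0.38 without 2 pigs) dropped to r = 0.04 once the identifier number was subtracted too. That step took ORM1 and HP to r = -0.33 (rho = -0.32, permutation p = 0.0209 and 0.019, adjusted p = 0.0342 and 0.0297, r = -0.21 without 2 pigs) and ORM1 and SAA2 to r = -0.35 (rho = -0.40, permutation p = 0.0113 and 0.00212, adjusted p = 0.0194 and 0.00449, r = -0.30 without 2 pigs), both past the threshold. For HP and LRG1, HP and ITIH4, SAA2 and SAA3, and CRP and APCS the r values after that step were 0.83, 0.80, 0.79 and 0.73, and 22 pairs passed, 18 positive and 4 negative.

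**Figure D5:**
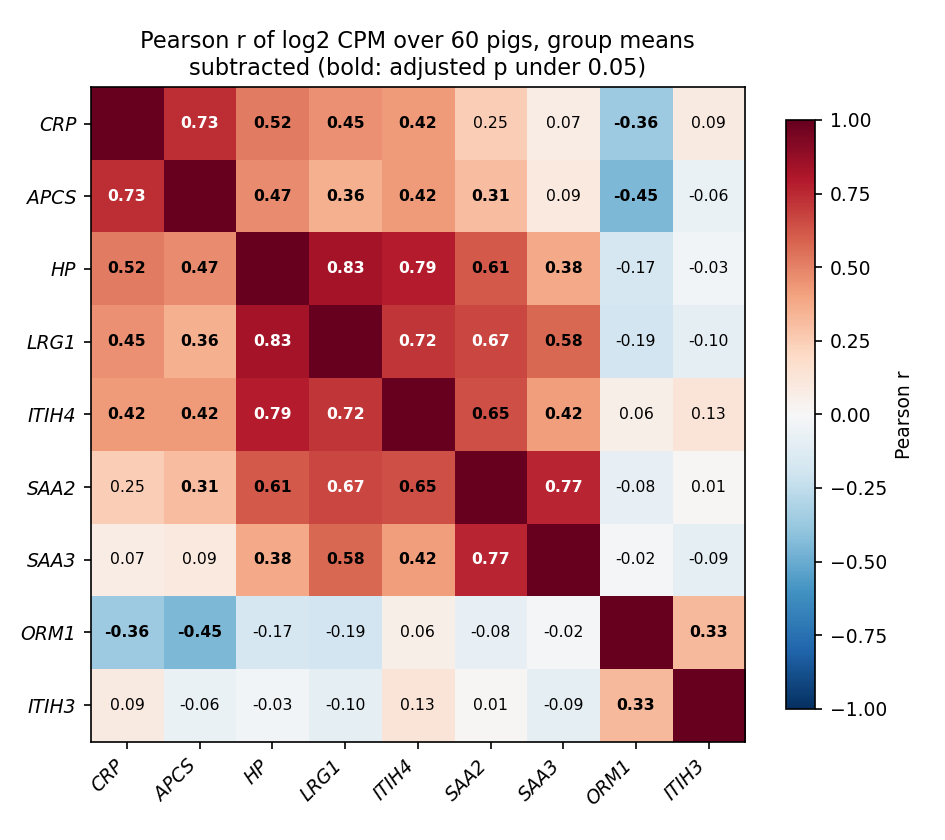
Pearson r of log2 CPM over 60 pigs, with the mean of each diet by surgery group subtracted, for 9 acute-phase genes (color from -1 to 1, bold where the permutation p adjusted over 36 pairs was under 0.05). HP, LRG1 and ITIH4 form a block at 0.72 to 0.83, SAA2 and SAA3 stand at 0.77 and CRP and APCS at 0.73, while ORM1 and ITIH3 are pale or blue against the rest.

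Over the same deviations, the genes most like each member were sought among 10812 named genes whose log2 CPM averaged 2 or more. HP was closest to HPS3 (r = 0.85), which takes part in lysosome-related organelle formation, the fibrinogen alpha chain FGA (r = 0.85) and the copper carrier CP (r = 0.84). HPS3 and CP overlap on opposite strands of chromosome 13, so reads of the pair may not be told apart. LRG1 was closest to HP, HPS3 (r = 0.81) and complement C3 (r = 0.79), and ITIH4 to HP, LRG1 and the other CRP locus (r = 0.69). CRP was closest to NOCT (r = 0.74), APCS and the kinase SIK1 (r = 0.71), and APCS to CRP, the other CRP locus (r = 0.66) and NNMT (r = 0.65). SAA2 was closest to SAA3, LRG1 and ITIH4, and SAA3 to SAA2, the metalloreductase STEAP4 (r = 0.63) and C3 (r = 0.62). ORM1 had other company: histidine-rich glycoprotein HRG (r = 0.77), fetuin A AHSG (r = 0.76), a known negative acute-phase protein, and ISYNA1 (r = 0.72). The nearest to ITIH3 were AMDHD1 (r = 0.62), SLC22A7 (r = 0.57) and IGFBP2 (r = 0.57). These are descriptions over 60 libraries that share their composition.

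The other genes of the acute-phase system were read from lists of textbook members. Their counts with BDL stand beside 3.39% of all tested genes called in ENT, 1.49% in SLE and 3.78% in MLE pigs, in either direction. A list of positive acute-phase genes outside the 10 had 22 measured. Of these, 3 were called with BDL in ENT pigs (2 lower, 1 higher), 1 in SLE (higher) and 3 in MLE (2 lower, 1 higher). Their medians were -0.29, 0.28 and -0.50 on the log2 scale, beside -0.79, 0.53 and -1.28 for the 10 members. The 10 members were not sorted into positive, negative and constitutive ones. The complement regulator C4BPA, which has 2 rows in the table, fell by 1.82 on 1 of them with ENT (SE 0.34, adjusted p = 8.26e-05) and by 1.82 with MLE (SE 0.38, adjusted p = 0.000515). CP fell by 1.54 with ENT (SE 0.38, adjusted p = 0.00284), and the protease inhibitor TIMP1 rose by 2.23 with SLE (SE 0.48, adjusted p = 0.00385) and by 3.41 with MLE (SE 0.55, adjusted p = 1.7e-05). The response of CP was 2.07 (SE 0.53, adjusted p = 0.0224) and that of C4BPA 2.01 (SE 0.47, adjusted p = 0.00984) more positive with SLE than with ENT, 2 of 6 list genes called there, all positive, against 2.33% of all genes called. Of the 4 called between MLE and SLE, all negative, against 0.265% of all genes, FGB and FGG each differed by -1.13 (SE 0.23, adjusted p = 0.0127 and 0.0107). HAMP, the iron hormone hepcidin, averaged 130 ± 74.8 CPM in ENT-sham (n = 12) and 75.6 ± 35.5 in ENT-BDL pigs (n = 10), and 0.54 to 0.80 CPM in the 4 parenteral groups. It was lower with SLE than with ENT in sham (-7.66, SE 0.52, adjusted p = 1.27e-16) and BDL pigs (-6.74, SE 0.49, adjusted p = 1.98e-15), and likewise with MLE (-7.90, SE 0.56, adjusted p = 7.47e-16, and -6.56, SE 0.55, adjusted p = 8.7e-13).

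Of 16 rows of negative acute-phase genes, 1 was called with BDL in ENT (PON1, -1.03, SE 0.35, adjusted p = 0.0314), 0 in SLE and 1 in MLE pigs (FETUB, -1.10, SE 0.31, adjusted p = 0.0113), with medians of -0.25, -0.17 and -0.60. These counts are near the shares over all genes (3.39%, 1.49% and 3.78%). The remaining ITI family, AMBP with ITIH1, ITIH2 and ITIH5, had no call in any comparison. With MLE, all 4 passed the adjusted p without the fold limit, as did 5 of the 10 members and 14.4% of all genes: ITIH1 at -0.50 (SE 0.12, adjusted p = 0.00179) and ITIH2 at -0.51 (SE 0.11, adjusted p = 0.000913) were lower and ITIH5 at 0.79 (SE 0.16, adjusted p = 0.000206) higher.

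Of 29 measured genes of interleukin-6 and interleukin-1 signaling, 2, 3 and 2 were called with BDL in ENT, SLE and MLE pigs, all higher, against 3.39%, 1.49% and 3.78% of all genes in either direction. IL11 and LIF, cytokines of the interleukin-6 family, rose with each diet, IL11 by 2.18, 2.75 and 4.42 and LIF by 1.27, 1.45 and 2.42 on the log2 scale (adjusted p = 0.025, 0.0138 and 0.000182, and 0.0251, 0.0422 and 0.00041). Both were rare, with mean IL11 levels of 0.56, 1.32 and 1.78 CPM in the BDL groups. The feedback inhibitor SOCS1, the third gene called in SLE pigs, rose by 1.06 (SE 0.30, adjusted p = 0.0312), and its response was 1.73 more positive with SLE than with ENT (SE 0.42, adjusted p = 0.0149). STAT3 and SOCS3, like CD163 and the ITI family above, are named after their values were seen. STAT3, which carries the interleukin-6 signal, differed by -0.33, 0.12 and -0.31 without passing (adjusted p = 0.0551, 0.665 and 0.132), as did SOCS3 at 0.35, 0.66 and 0.25. None of the 9 measured receptors and clearance genes, among them the haptoglobin receptor CD163, was called with BDL in any diet.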

How the data were processed

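Liver RNA of 60 pigs was sequenced as poly-A libraries. According to the study's methods and the submitters' processing notes, the authors trimmed reads with fastp, aligned them to Sscrofa11.1 with HISAT2 2.0.5 and counted reads per gene with featureCounts 1.5.0-p3, and StringTie 1.3.3 is also listed. The strand setting is not given in the sources used here. The deposited table holds raw counts per gene. 24 features without a gene name, 0.00842% to 0.0407% of a library, were left out.

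Counts were analysed in R 4.3.3 with edgeR 4.0.16 (TMM scaling, filterByExpr, robust quasi-likelihood fit of 6 groups over all 60 pigs), and p-values were adjusted over 16210 genes by Benjamini-Hochberg. Calls needed a fold above 2 with the adjusted p under 0.05, or the adjusted p alone for interactions. SE is the absolute log2 fold change divided by the square root of F. CPM used TMM library sizes, and log2 CPM a prior count of 2. The study's own test was DESeq2, run here as an alternative (DESeq2 1.42.0). Python 3.11.15, scipy 1.17.1 and matplotlib 3.10.9 served for permutations and plots.

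The members, lists and tests were chosen with earlier results of these data known. Of listed genes, at most the 2 with the largest called change per list and comparison are named, and others are marked. Replicate numbers did not pair pigs: 82 same-numbered pairs from different groups had correlations of -0.231 to 0.381 (median -0.011). With no reference sequence used, none is shown.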

Additional observations from a re-analysis of the deposited data

Results flagged for a closer look

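In 6 of 40 gene-by-group sets of 8 to 10 pigs, 1 pig stood apart from the rest, where chance gives about 1 in 20 for normally spread values. That rate does not hold for SAA4, whose values fall into separate sets. The ENT-sham (12 pigs) and SLE-BDL (11 pigs) groups were too large for the rule and were not examined. SAA2 was 47.3 CPM in SLE-sham replicate 8, and 5.42 to 14.4 in the other pigs of that group. SAA3 was 138 CPM in MLE-sham replicate 2 against 8.93 to 26.5, and 8.80 in MLE-BDL replicate 1 against 14.9 to 22.1. SAA4 was 0.384 CPM in ENT-BDL replicate 9 against 7.85 to 38.5, and 0.408 in SLE-sham replicate 8 against 8.55 to 35.9. ITIH3 was 1314 CPM in ENT-BDL replicate 10 against 2011 to 3229.

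The response to BDL differed between diets by the interaction test in 5 cases, as given in the report. Between SLE and ENT the log2 difference was 1.93 for HP, 1.53 for ITIH4 and 2.08 for CRP, and between MLE and SLE it was -2.32 for HP and -1.78 for ITIH4.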

How the results depend on the processing

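Of the 10 genes, the number called was within 1.5 times the reported one with DESeq2's size factors in edgeR and with no filter on low counts. With DESeq2 itself it was 1 (reported 0) for BDL with SLE, 1 (0) for MLE against ENT in sham and 2 (1) in BDL pigs, 5 (3) and 4 (2) for the interactions of SLE with ENT and MLE with SLE, and 3 (0) for neighboring groups in the order of levels. Without the fold limit it was 1 for BDL with SLE, 1 for MLE against ENT in sham and 4 (1) for SLE against ENT in BDL pigs. Without both nearly alike ENT libraries it was 1 for BDL with SLE, 1 for MLE against ENT in sham pigs and 1 for the order. With the identifier number as a block it was 2 (4) for BDL with ENT, 0 (1) for MLE against ENT in BDL, 1 for MLE against ENT in sham and 0 (6) for MLE against SLE in BDL pigs. With only the groups compared it was 1 for MLE against ENT in sham and 0 (6) for MLE against SLE in BDL pigs. With the replicate block it was 3 (6) for MLE against SLE in BDL pigs, and no other count moved beyond 1.5 times. The causes were not tested. The alternatives of the order were chosen after seeing the data.

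Leaving out 1 pig gave 2 to 5 calls for BDL with ENT, 0 to 2 with SLE and 3 to 5 with MLE. In sham pigs it gave 2 to 4 for SLE against ENT, 0 to 2 for MLE against ENT and 0 to 0 for MLE against SLE. In BDL pigs it gave 1 to 3, 1 to 2 and 2 to 6. The interactions gave 3 to 4 (SLE with ENT), 0 to 0 (MLE with ENT) and 2 to 3 (MLE with SLE), and the order 0 to 2.

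No called difference changed sign. Of 120 differences, 17 changed sign when 1 pig was left out and 9 under another alternative, and the lowest adjusted p as reported among these was 0.516. With 1 pig left out the log2 differences for BDL ran from -0.0268 to 0.23 for LRG1 with SLE, and from -0.85 to 0.20 for SAA3 and -0.0869 to 0.11 for ITIH3 with MLE. In sham pigs they ran from -0.0689 to 0.77 for SAA3 (SLE against ENT), from -0.42 to 0.13 for SAA4 and -0.0661 to 0.32 for LRG1 (MLE against ENT), and from -0.13 to 0.41 for SAA4, -0.0001 to 0.35 for CRP, -0.61 to 0.17 for APCS and -0.25 to 0.14 for LRG1 (MLE against SLE). In BDL pigs they ran from -0.26 to 1.02 for SAA2, -0.52 to 0.39 for SAA3 and -0.004 to 0.27 for ORM1 (SLE against ENT), and from -0.18 to 0.0295 for ITIH3 (MLE against SLE). For the interaction of MLE with ENT they ran from -2.41 to 0.45 for SAA2, -0.0003 to 0.55 for APCS and -0.16 to 0.0418 for ITIH3. With the identifier block ORM1 was at 0 for BDL with ENT, -0.14 with SLE, 0.14 for SLE against ENT in sham pigs and -0.14 for the interaction of SLE with ENT, SAA4 was at 0.0023 for MLE against ENT in sham pigs, and ITIH3 at 0.0017 for MLE against SLE in BDL pigs. With the replicate block SAA4 was at 0.10 and -0.18 in sham pigs, for SLE against ENT and MLE against SLE. Without both nearly alike ENT libraries SAA2 was at -0.10 for SLE against ENT in BDL pigs.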
